A study of Mus musculus with 6 samples.

Results

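The developing female reproductive tract and the adult uterine stroma are patterned by a small set of transcription factors, and 9 of them were examined here by name: Hand2, Foxa2, Msx1, Msx2, Tcf21, Emx2, Pax2, Snai2 and Meis1. Of the 9, 8 had at least 1 probe set carrying their symbol alone, 16 probe sets in all, among 18193 genes measured in the same way. Expression of Pax2 was not analysed here, so every count of factors by expression is out of 8. The brightest probe set of a gene, by its mean on the 6 arrays, is the main one, and the others are given for agreement. The genes were listed by name and not by any test, although results of these arrays were known when the list was drawn up.

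The tissue was the uterus of female mice of mixed background, 8 weeks old, homozygous for a floxed Gata2 allele (GATA2 f/f) in both groups. The labels of these arrays name no Cre, so no deletion of Gata2 is described, and all mice had been ovariectomized at 6 weeks of age. After 2 weeks they received sesame oil alone (3 arrays, called oil) or with 1 mg of progesterone dissolved in 100 µl (3 arrays, called progesterone), and the uterus was taken 6 h later. The RNA is described as pooled from 3 mice, and nothing says that each array held a separate pool, so p-values measure the spread between these arrays, which may be technical.

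In the uterus progesterone acts through its receptor in both epithelium and stroma, and the stroma in turn restrains the epithelium. HAND2 is a basic helix-loop-helix (bHLH) factor of the stroma that is known as a progesterone target and holds back the production of fibroblast growth factors (FGFs) that drive epithelial growth. FOXA2 is a forkhead factor of the glands, MSX1 and MSX2 are homeobox factors of uterine receptivity, and EMX2 and PAX2 are needed to build the urogenital ducts. TCF21 is a bHLH factor of mesenchymal organs, SNAI2 a zinc finger repressor linked to the mesenchymal state, and MEIS1 a TALE homeobox factor that binds DNA beside HOX proteins.

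Of the 8 factors 1 rose (Hand2), 1 fell (Meis1) and 6 did not pass the threshold, a limma adjusted p under 0.05 with Benjamini-Hochberg adjustment over all genes. Over all 18193 genes 11.7% passed, 5.92% as higher and 5.83% as lower, so 2 of 8 members is a small count beside a common response. The median log2 change was -0.06 over the 8 factors and -0.02 over all genes, with 4 factors above and 4 below 0. The median size of change without its sign was 0.21 for the 8 factors and 0.16 for all genes. For Hand2 and Meis1 the oil and progesterone arrays did not overlap, and for the other 6 they did. Over all genes 30.4% had no overlap, 14.5% as higher and 15.9% as lower. An unadjusted limma p under 0.05 was seen in 2 of the 8 factors, Hand2 and Meis1, and in 26% of all genes.

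The core promoters of Hand2 and Meis1 are shown because these were the factors that passed. Each stretch runs from 250 bases before to 50 after the annotated start (RefSeq, GRCm38.p6). The Hand2 window is chr8:57320733-57321032 on the plus strand, and the Meis1 window is chr11:19018920-19019219 on the minus strand. Capitals mark matches on either strand to the E-box CANNTG, the core bound by bHLH factors, and to AGATAA, 1 form of the GATA motif. Other forms of the GATA motif were not searched.
Hand2: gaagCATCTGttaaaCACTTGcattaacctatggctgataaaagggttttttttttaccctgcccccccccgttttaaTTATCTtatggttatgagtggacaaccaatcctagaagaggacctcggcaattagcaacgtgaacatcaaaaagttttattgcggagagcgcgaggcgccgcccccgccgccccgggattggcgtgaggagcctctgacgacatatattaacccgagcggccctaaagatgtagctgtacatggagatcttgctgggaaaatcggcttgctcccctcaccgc
Meis1: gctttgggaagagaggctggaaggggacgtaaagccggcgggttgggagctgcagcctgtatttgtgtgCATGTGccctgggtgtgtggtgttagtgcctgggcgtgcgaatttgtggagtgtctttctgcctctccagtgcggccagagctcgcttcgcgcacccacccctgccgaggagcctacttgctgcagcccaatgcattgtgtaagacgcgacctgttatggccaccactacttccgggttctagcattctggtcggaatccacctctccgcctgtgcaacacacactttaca
The Hand2 window held 2 E-boxes and 1 match to AGATAA, and the Meis1 window held 1 E-box and 0 matches to AGATAA. None of these matches overlapped another. E-boxes were found in 72.3% and AGATAA in 11.2% of all 32851 promoter windows of that length. The single steroid receptor site TGTTCT, in 19% of windows, and the full palindromic steroid response element, in 0.475%, can overlap each other. Both had 0 matches in either window, which says only that these letters are not in these windows.

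Promoter windows were searched for 8 of the 9 factors, Pax2 with 3 windows among them and Snai2 not. Among the windows of the other factors, AGATAA also occurred once in the single window of Tcf21 and once in 1 of the 3 windows of Foxa2. Neither TGTTCT nor the full steroid response element matched in any window of Foxa2, Msx1, Msx2, Tcf21, Emx2 or Pax2. Msx1 and Msx2 had 1 E-box each, while Emx2 had 0.

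Hand2 was the factor that rose. Its main probe set read 9.86, 9.82 and 9.78 on oil replicates 1 to 3 and 10.64, 10.27 and 10.46 on progesterone replicates 1 to 3 (log2 expression values, as are all levels below). The oil arrays sat within a narrow band, and every progesterone array lay above them. The means were 9.82 ± 0.04 and 10.46 ± 0.185 (SD, n = 3 per group), a log2 change of 0.64 ± 0.113 SE or 1.55-fold (limma adjusted p = 0.0157). The 95% interval of the change ran from 0.37 to 0.90, and 7.86% of all genes had a larger change in either direction.

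The other probe sets of Hand2 pointed the same way without passing. The second read 6.25, 6.39 and 5.54 with oil and 6.47, 6.54 and 6.48 with progesterone, a log2 change of 0.44 (limma adjusted p = 0.287 over all probe sets). Its oil values were spread by the low oil replicate 3, but its groups did not overlap. The third, nearest to background, read 3.90, 4.04 and 4.03 with oil and 4.45, 4.22 and 4.45 with progesterone, a log2 change of 0.38 (limma adjusted p = 0.0746 over all probe sets). Its groups also lay apart. Background is taken from the TrpnX control probe sets, whose values reached 3.34, and all 16 probe sets of the factors were above that on all 6 arrays.

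The call of Hand2 ended when either of 2 oil arrays was left out. Without oil replicate 1 its adjusted p in limma was 0.0537, and without oil replicate 2 it was 0.0682, with log2 changes of 0.66 and 0.64. In the other 4 fits that left out 1 array it passed, and the log2 change over all 6 such fits lay between 0.54 and 0.73. Of 7 stromal markers measured beside it, 0 passed as higher and 1 was lower, the matrix proteoglycan Lum, while 11.7% of all genes passed. Unadjusted, 3 of the 7 had a limma p under 0.05, against 26% of all genes. The collagen genes Col1a1 and Col3a1 changed by 0.66 and 0.34 (limma adjusted p = 0.0876 and 0.359). Dcn, Vim and Col1a2 changed by -0.33, -0.53 and -0.03 (limma adjusted p = 0.153, 0.385 and 0.945). The stromal receptor Pdgfra changed by -0.0033. Of the 3 with an unadjusted limma p under 0.05, Lum and Dcn were lower and Col1a1 was higher. The part of stromal content in the change of Hand2 was not tested. The summed level of the 7 markers, as log2 of the sum of linear values, was 15.27 to 15.47 with oil and 14.94 to 15.45 with progesterone. In whole tissue, fewer cells of a type and less RNA per cell cannot be told apart.

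**Figure D1:**
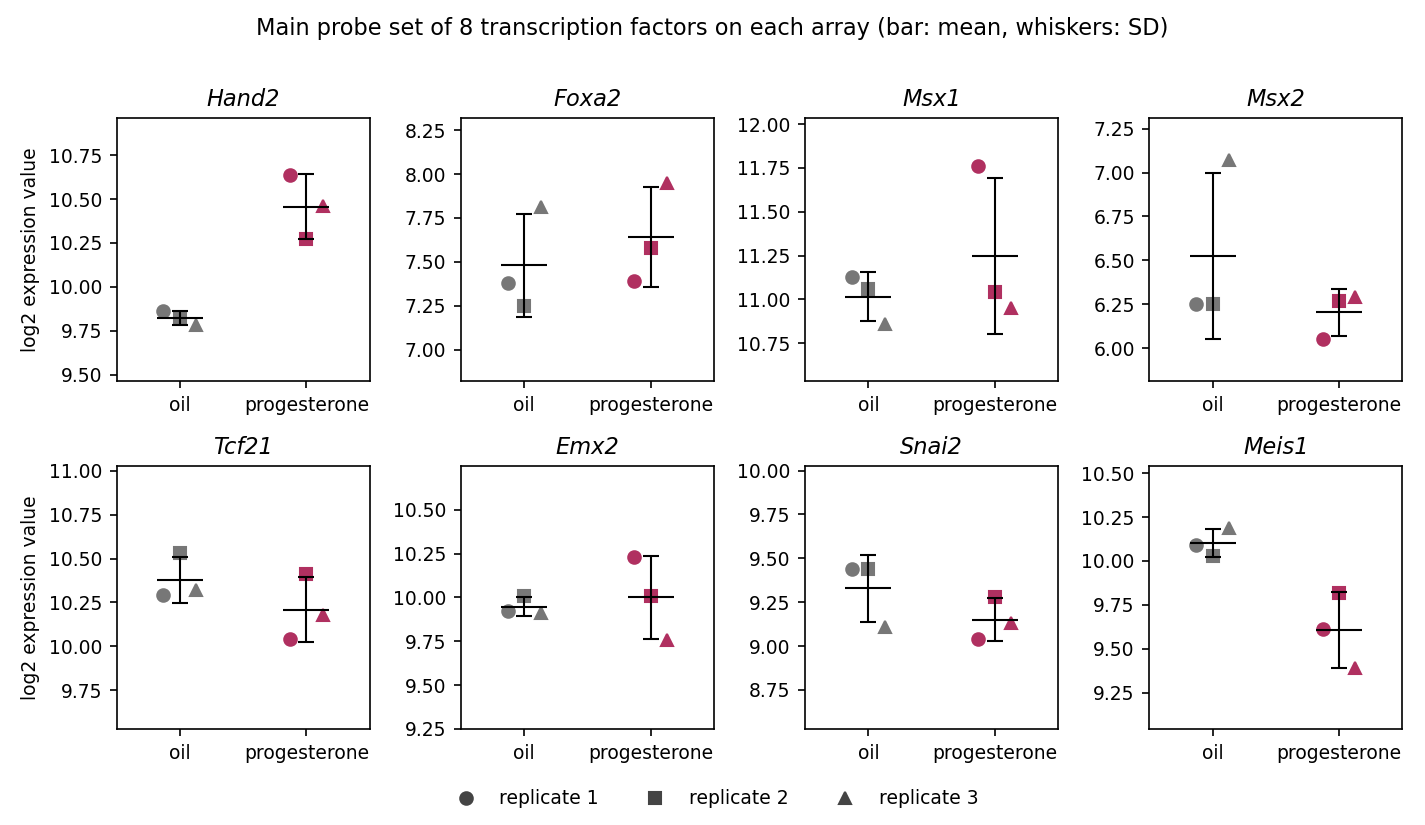
Log2 expression values of the main probe set of 8 transcription factors on each of the 6 arrays, with oil in grey and progesterone in red, the marker shape giving the replicate, the bar the mean and the whiskers the SD. Each panel spans the same range of log2 units. Hand2 lies higher and Meis1 lower on all 3 progesterone arrays, and the groups overlap for the other 6 factors.

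Meis1 was the factor that fell. Its main probe set read 10.09, 10.03 and 10.19 on oil replicates 1 to 3 and 9.61, 9.82 and 9.39 on progesterone replicates 1 to 3. All progesterone arrays lay below all oil arrays, with a wider spread among them. The means were 10.10 ± 0.0808 and 9.61 ± 0.215 (SD, n = 3 per group), a log2 change of -0.50 ± 0.127 SE or 1.41-fold lower (limma adjusted p = 0.0479). The 95% interval ran from -0.79 to -0.20. This call was at the edge of the threshold: with the replicate number as a block the adjusted p was 0.0518, so under that pairing Meis1 did not pass.

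A second probe set of Meis1 showed a change of nearly the same size. It read 9.73, 9.52 and 9.63 with oil and 9.32, 9.04 and 9.13 with progesterone, without overlap, a log2 change of -0.46 (limma adjusted p = 0.0488 over all probe sets). Adjusted over all probe sets in the same way, the main one missed the threshold at 0.0587. The third, at 3.91 to 4.15 with oil and 3.82 to 4.14 with progesterone, overlapped between groups and changed by -0.06 (limma adjusted p = 0.849). Its level was close to background.

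Of the 6 fits that left out 1 array, 1 kept the call of Meis1, the fit without progesterone replicate 2 (limma adjusted p = 0.0454). It ended without oil replicates 1, 2 or 3 (0.128, 0.117 and 0.123) and without progesterone replicates 1 or 3 (0.0959 and 0.0992). The log2 change stayed between -0.60 and -0.39. Markers of endothelium, adipose tissue and smooth muscle are given beside it, and their part in the result was not tested. None of 6 endothelial, 4 adipose and 7 smooth muscle markers measured passed in limma. At an unadjusted p under 0.05 were 3, 3 and 1 of them, against 26% of all genes. Endothelial markers summed to 10.83 to 11.19 with oil and 10.73 to 10.84 with progesterone. Adipose markers summed to 8.94 to 10.01 with oil and 6.79 to 9.04 with progesterone. Smooth muscle markers summed to 15.20 to 15.23 with oil and 15.0 to 15.26 with progesterone, overlapping like the endothelial and adipose sums.

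**Figure D2:**
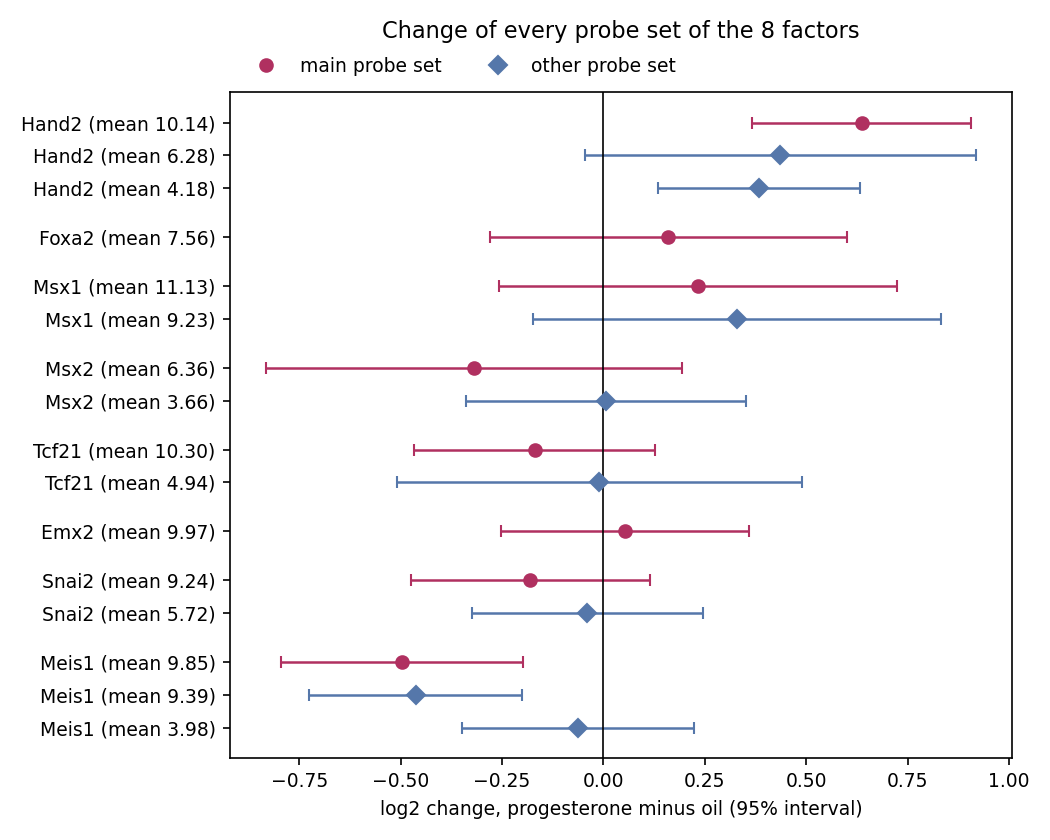
Log2 change (progesterone minus oil, horizontal axis) with its 95% interval for all 16 probe sets of the 8 factors, main probe sets as red circles and others as blue diamonds; the mean level of each over the 6 arrays stands in its label. All 3 probe sets of Hand2 lie above 0, and the 2 brighter probe sets of Meis1 lie below 0 at -0.50 and -0.46.

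Msx1 varied more among progesterone arrays than between groups. Its main probe set read 11.13, 11.06 and 10.86 with oil and 11.76, 11.04 and 10.95 with progesterone. Progesterone replicate 1 stood above the other 5 arrays, and the remaining progesterone arrays lay within the oil range. The log2 change was 0.23 ± 0.216 SE (95% interval -0.27 to 0.74, limma adjusted p = 0.577), and without progesterone replicate 1 it was -0.02. The second probe set of Msx1 had the same shape, with 9.93 on progesterone replicate 1 and 8.92 to 9.20 on the other 5 arrays.

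Emx2 was likewise highest on progesterone replicate 1. It read 9.92, 10.01 and 9.91 with oil and 10.23, 10.01 and 9.76 with progesterone. The oil arrays lay inside the range of the progesterone arrays. The change was 0.05 ± 0.131 SE (95% interval -0.25 to 0.36, limma adjusted p = 0.861), and it was -0.06 without progesterone replicate 1.

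Neutrophil transcripts differed between arrays of one group. S100a8 and S100a9 read 11.54 to 12.48 on oil replicate 3 and progesterone replicates 2 and 3, and 4.17 to 5.01 on the other 3 arrays. The other 3 neutrophil genes measured did not share that size of split. Ngp read 9.05 on progesterone replicate 2 but 5.51 on oil replicate 3 and 4.09 on progesterone replicate 3. On the other 3 arrays it read 3.56 to 4.04. Camp read 7.88, 5.20 and 4.69 on the arrays high in S100a8, in the same order, against 4.12 to 4.61 on the other 3. Mmp8 read 5.46, 4.47 and 4.86, against 3.46 to 3.68. Without the 3 arrays high in S100a8 and S100a9, a fit of 2 oil arrays against 1 progesterone array that assumes the lone array varies like the oil arrays, the log2 change was 0.67 for Msx1, 0.27 for Emx2, 0.80 for Hand2 and -0.45 for Meis1. None of the 18193 genes passed an adjusted p in limma in that fit, while 3379 had an unadjusted p under 0.05. The part of the neutrophil transcripts in these values was not tested.

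Msx2, which shares its homeodomain class with Msx1, was dominated by 1 oil array. It read 6.25, 6.25 and 7.07 with oil and 6.05, 6.27 and 6.29 with progesterone. Oil replicate 3 stood above the other 5 arrays, which lay within a narrow range. The log2 change was -0.32 ± 0.226 SE (95% interval -0.85 to 0.21, limma adjusted p = 0.448), and it was -0.05 without oil replicate 3. The weaker probe set of Msx2, at 3.41 to 3.84 over the 6 arrays, changed by 0.01.

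Foxa2, measured by 1 probe set, was highest on the arrays numbered 3 in both groups. It read 7.38, 7.25 and 7.81 with oil and 7.39, 7.58 and 7.95 with progesterone. The groups overlapped, and the change was 0.16 ± 0.193 SE (95% interval -0.29 to 0.61, limma adjusted p = 0.685). Of 9 genes linked to FOXA2 in the glands, its relatives Foxa1 and Foxa3 among them, 2 were highest on those same arrays in both groups. The other 7 were not, but Foxa1, Foxa3, Prss28 and Spink1 read 2.93 to 3.99 over the 6 arrays. These levels are near background, where such a pattern can be missed. Ltf, the secreted iron binder lactoferrin, read 12.06 on oil replicate 3 and 12.32 on progesterone replicate 3 against 7.11 to 8.80 on the other 4 arrays. Cxcl15, a chemokine of gland epithelium, read 9.86 and 9.21 on those arrays against 7.48 to 8.67 on the others. Both were singled out after their values were seen, and their adjusted p values in limma were 0.956 and 0.934. The summed level of general epithelial markers was also highest on replicate 3 in both groups. It was 13.66, 13.69 and 13.83 with oil and 13.91, 13.36 and 14.01 with progesterone. Epcam, Cldn7, Krt8 and Krt7 were highest on those arrays in both groups, while Krt18, Krt19, Cldn3 and Cldn4 were not. The part of epithelial content in the pattern of Foxa2 was not tested. Spink1 and the protease gene Prss28 were lowest among oil arrays on replicate 3, at 3.15 and 2.93, both below the background limit of 3.34. Of the 9 gland genes, 0 passed, against 11.7% of all genes. Unadjusted, 1 of the 9 had a limma p under 0.05, against 26% of all genes. That was Spink1, a secreted trypsin inhibitor (log2 change 0.46, limma adjusted p = 0.154). In the 6 fits that left out 1 array, Spink1 passed only without progesterone replicate 1 (limma adjusted p = 0.0434, log2 change 0.64). In the rest its limma adjusted p was 0.166 to 0.359. Spink1 read 3.15 to 3.99 over the 6 arrays, close to the background limit of 3.34. With an offset of 32 before log2 its change was 0.13.

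Tcf21 and Snai2 moved little between groups and had the most similar pattern of any pair among the 8. Tcf21 read 10.29, 10.53 and 10.32 with oil and 10.04, 10.41 and 10.18 with progesterone, a change of -0.17 ± 0.126 SE (95% interval -0.47 to 0.13, limma adjusted p = 0.472). Snai2 read 9.44, 9.44 and 9.11 with oil and 9.04, 9.28 and 9.13 with progesterone, a change of -0.18 ± 0.125 SE (95% interval -0.47 to 0.11, limma adjusted p = 0.44). Both groups overlapped for both genes, and within the progesterone group both were highest on replicate 2 and lowest on replicate 1. After each gene was centred on its own mean, they differed by a root-mean-square of 0.113 over the 6 arrays. The widest separation among the 28 pairs was that of Hand2 and Meis1, at 0.604. The second probe sets of Tcf21 and Snai2 changed by -0.01 and -0.04.

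The 6 factors that did not pass were not shown to be unaltered. Their 95% intervals allowed a rise of up to 0.74 for Msx1 and 0.61 for Foxa2, and a change as low as -0.85 for Msx2. The bounds of Msx1 and Msx2 are farther from 0 than the change of Hand2. The bounds farthest from 0 were -0.47 for Tcf21, 0.36 for Emx2 and -0.47 for Snai2.

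**Figure D3:**
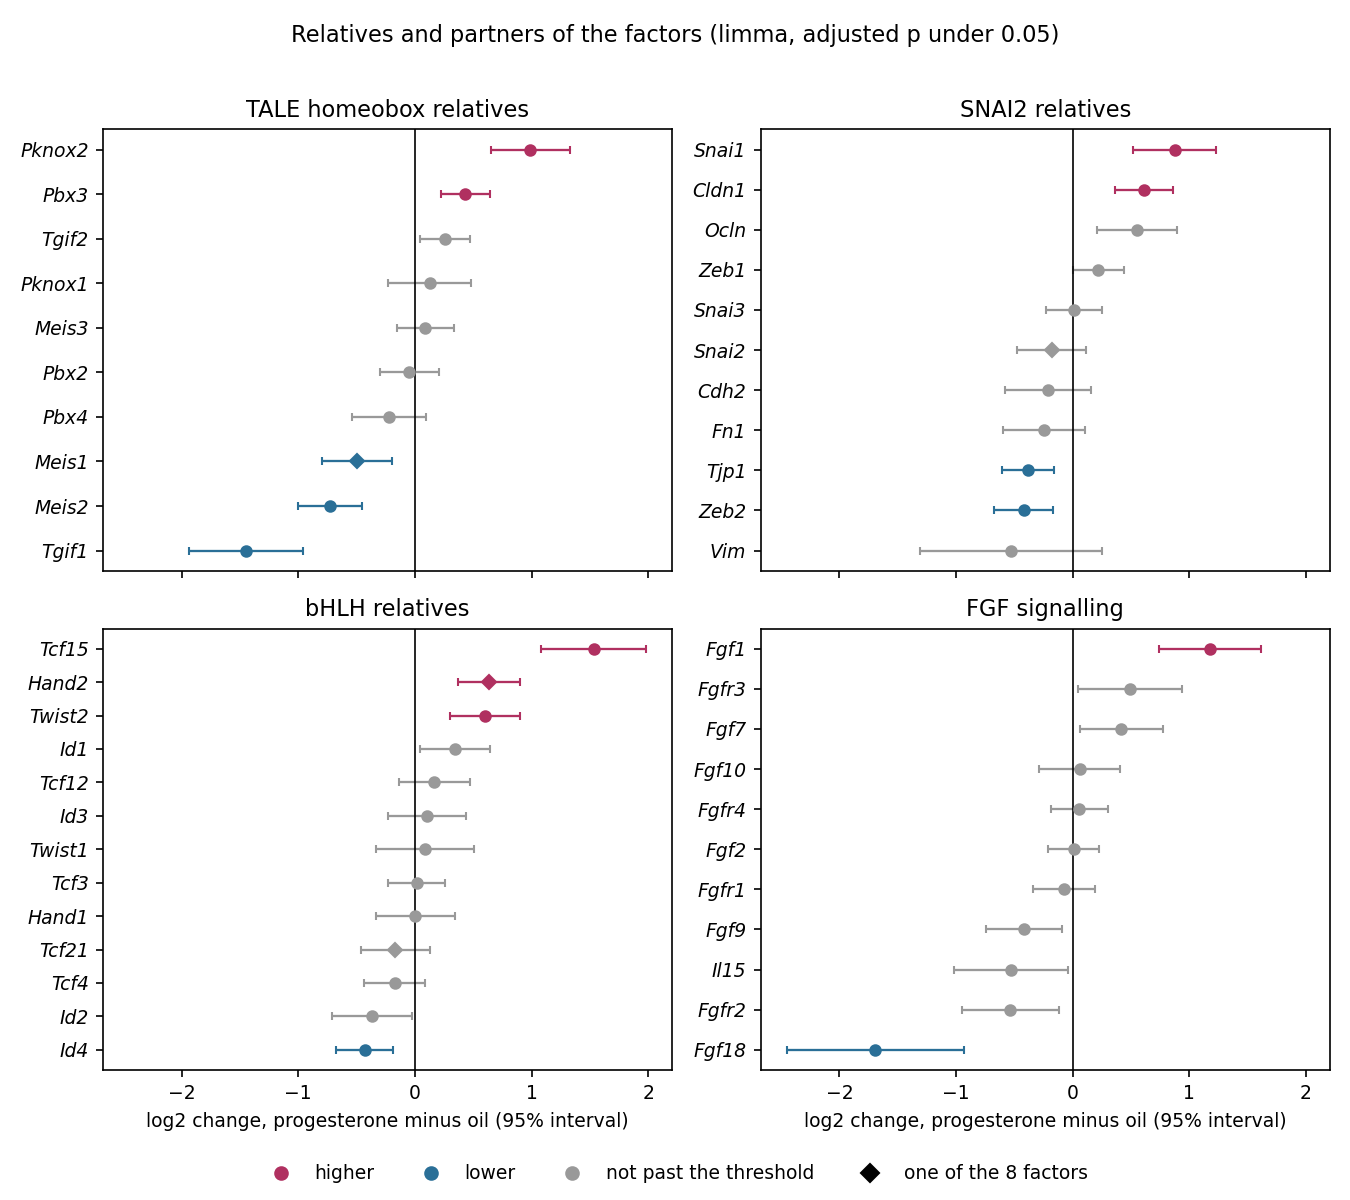
Log2 change (progesterone minus oil, horizontal axis) with its 95% interval for relatives and partners of the factors in 4 groups, red where higher and blue where lower at a limma adjusted p under 0.05, grey otherwise, with diamonds for the factors themselves. Pknox2 and Pbx3 lie above 0 while Meis1, Meis2 and Tgif1 lie below it, and Snai1 lies above 0 while the interval of Snai2 spans it.

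The TALE homeobox relatives of MEIS1 changed in both directions. Of 9 measured, 2 rose, 2 fell and 5 did not pass, with a median log2 change of 0.09, while 11.7% of all genes passed. Unadjusted, 5 of the 9 had a limma p under 0.05, against 26% of all genes. Meis2, the closest relative, read 11.04, 11.09 and 10.86 with oil and 10.24, 10.44 and 10.13 with progesterone. Its groups lay apart, with a log2 change of -0.73 ± 0.116 SE (1.65-fold lower, limma adjusted p = 0.0111). Its other 3 probe sets changed by -0.55, -0.48 and -0.59. The changes of Meis1 and Meis2 differed by 0.23 ± 0.122 SE, and the per-array difference overlapped between groups (exact permutation p = 0.2, two-sided, n = 3 per group). The smallest p that 3 arrays against 3 can give is 0.1, so this test cannot decide whether the changes differ.

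Tgif1, a TALE repressor of TGF-beta signalling, fell furthest in this family, from 8.62 to 7.17 (2.73-fold, limma adjusted p = 0.00784). Pknox2, which like MEIS proteins pairs with PBX partners, rose from 7.95 to 8.94 (1.98-fold, limma adjusted p = 0.00839). Pbx3, a DNA-binding partner of MEIS proteins, rose from 7.46 to 7.89 (1.35-fold, limma adjusted p = 0.0254). The calls of Tgif1 and Pknox2 held in all 6 fits that left out 1 array. That of Meis2 ended without oil replicate 2 (limma adjusted p = 0.0564), and that of Pbx3 held only without progesterone replicate 1, with limma adjusted p between 0.0592 and 0.0964 in the other 5.

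Snai1, the close relative of Snai2, rose while Snai2 did not pass. Snai1 read 7.09, 6.77 and 6.51 with oil and 7.68, 7.73 and 7.59 with progesterone. Its groups did not overlap, and the log2 change was 0.88 ± 0.151 SE (1.84-fold, limma adjusted p = 0.0142). The changes of Snai1 and Snai2 differed by 1.06 ± 0.115 SE, with the per-array difference apart between groups. The exact permutation p was 0.1, two-sided, the smallest that 3 arrays against 3 can give (0.2 adjusted over the 4 pairs compared). The call of Snai1 ended without oil replicate 2 (limma adjusted p = 0.0651) and without progesterone replicate 2 (0.0562).

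Of the 10 measured genes of the wider epithelial and mesenchymal programme around SNAI2, 2 rose, 2 fell and 6 did not pass (median log2 change -0.10). The share of all genes that passed was 11.7%. Unadjusted, 6 of the 10 had a limma p under 0.05, against 26% of all genes. Beside Snai1, Cldn1, a tight junction protein, rose 1.53-fold (limma adjusted p = 0.0143). Zeb2, a repressor of epithelial genes, was 1.34-fold lower (limma adjusted p = 0.0483), and Tjp1, a scaffold of tight junctions, was 1.30-fold lower (limma adjusted p = 0.0458). Averaged over its 4 probe sets Cldn1 changed by 0.29 and did not pass (limma adjusted p = 0.0797). Its call ended without oil replicate 2 (0.0566) and without progesterone replicate 2 (0.0557). That of Zeb2 held in 0 of the 6 fits without 1 array (limma adjusted p 0.0737 to 0.157), and that of Tjp1 held only without progesterone replicate 1, with 0.105 to 0.15 in the other 5. With the replicate block Tjp1 had an adjusted p of 0.0567. The mesenchymal filament gene Vim and the cadherin Cdh2 changed by -0.53 and -0.21, with limma adjusted p of 0.385 and 0.469.

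Among 11 bHLH relatives and partners of HAND2 and TCF21, 2 rose, 1 fell and 8 did not pass, with a median log2 change of 0.09. The share of all genes that passed was 11.7%. Unadjusted, 5 of the 11 had a limma p under 0.05, against 26% of all genes. Tcf15, a bHLH factor of somite mesoderm and endothelium, read 6.14, 5.95 and 6.15 with oil and 8.06, 7.41 and 7.37 with progesterone. Its groups lay far apart, with a log2 change of 1.53 ± 0.191 SE (2.89-fold, limma adjusted p = 0.00545), and its call held in all 6 fits without 1 array. Twist2, a mesenchymal bHLH factor, rose 1.52-fold (limma adjusted p = 0.027), while Twist1 changed by 0.09. Id4, which blocks bHLH factors from binding DNA, was 1.35-fold lower (limma adjusted p = 0.0399). Its other 2 probe sets changed by -0.27 and -0.40 (limma adjusted p = 0.306 and 0.171 over all probe sets). Adjusted in that way, the main probe set of Id4 missed the threshold at 0.0528.

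The calls of Twist2 and Id4 each held in 1 of those 6 fits. Twist2 passed only without progesterone replicate 3, with limma adjusted p of 0.0554 to 0.0862 in the other 5 fits. Id4 passed only without progesterone replicate 2, with 0.0888 to 0.138 in the other 5. The general bHLH partners Tcf3, Tcf4 and Tcf12 changed by 0.02, -0.17 and 0.17, none past the threshold. Hand2 itself differed from Tcf21 by 0.81 ± 0.229 SE in its change, with the arrays apart (exact permutation p = 0.1, two-sided, the smallest possible, 0.2 adjusted over 4 pairs). For Msx1 against Msx2 the difference of changes was 0.55 ± 0.485 SE (exact permutation p = 0.6).

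Among the FGF ligands, their receptors and Il15, listed here beside HAND2, 1 of 11 measured genes rose, 1 fell and 9 did not pass. Over all genes 11.7% passed. An unadjusted limma p under 0.05 was seen in 7 of the 11, the cytokine gene Il15 among them, and in 26% of all genes. Fgf18, a secreted growth factor, read 6.99, 7.20 and 5.98 with oil and 5.40, 4.82 and 4.88 with progesterone. Its groups lay apart although oil replicate 3 was low, with a log2 change of -1.69 ± 0.323 SE (3.23-fold lower, limma adjusted p = 0.0194). Fgf1, another ligand of the family, read 5.96, 5.96 and 5.90 with oil and 7.52, 7.09 and 6.74 with progesterone. It rose by 1.18 ± 0.187 SE (2.26-fold, limma adjusted p = 0.0109), and its other 2 probe sets changed by 0.74 and 0.81.

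Other members of the FGF group gave smaller values. Fgf9 changed by -0.42 and the epithelial receptor Fgfr2 by -0.53, with limma adjusted p of 0.104 and 0.106. The stromal ligand Fgf7 changed by 0.42 and the receptor Fgfr3 by 0.49, with limma adjusted p of 0.131 and 0.152, and Fgf2 changed by 0.01 near background. With the replicate block the counts in this group were 2 higher and 3 lower. The call of Fgf1 ended without oil replicate 2 (limma adjusted p = 0.0516). That of Fgf18 ended without oil replicates 1 or 2 (0.0742 and 0.0743) and without progesterone replicates 2 or 3 (0.0726 and 0.059). Il15, a stromal cytokine, changed by -0.53 (limma adjusted p = 0.158).

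Around the MSX factors, 0 of 12 relatives and Wnt, cadherin and BMP partners rose, 2 fell and 10 did not pass. Their median log2 change was -0.14, and 11.7% of all genes passed. Unadjusted, 4 of the 12 had a limma p under 0.05, against 26% of all genes. Wnt7a, an epithelial Wnt ligand, fell from 8.17 to 6.07 (4.28-fold, limma adjusted p = 0.00407), and its call held in all 6 fits without 1 array. Its other 2 probe sets, at lower levels, changed by 0.16 and by -0.0033, and the average of all 3 changed by -0.65. Bmp4, a bone morphogenetic protein, was 1.44-fold lower (limma adjusted p = 0.0499), which held only without oil replicate 3, with 0.0914 to 0.169 in the other 5 fits. Wnt5a and Cdh1, a stromal Wnt ligand and the epithelial cadherin, changed by 0.33 and -0.05 without passing.

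Of 10 Müllerian and urogenital factors that act with EMX2 and PAX2 in duct formation, 0 passed in limma (median log2 change -0.02). An unadjusted limma p under 0.05 was seen in 4 of the 10, and in 26% of all genes. The transcriptional cofactor Dach1 and the paired-box relative of PAX2, Pax8, had the largest change, -0.51 each, with limma adjusted p of 0.161 and 0.0599. Pax8 read 7.91, 8.12 and 7.81 with oil and 7.65, 7.21 and 7.44 with progesterone, without overlap. In the 6 fits that left out 1 array, both passed only without progesterone replicate 1. Limma adjusted p was then 0.0428 for Pax8 and 0.0185 for Dach1, against 0.0797 to 0.192 and 0.219 to 0.354 in the rest. Their other probe sets, at lower levels, changed by 0.01 for Pax8 and by 0.04 and -0.0033 for Dach1. Averaged over probe sets the changes were -0.25 and -0.16 (limma adjusted p = 0.208 and 0.453). Of 7 oviduct and ciliated cell markers 0 passed, and 1 had an unadjusted limma p under 0.05. That was Rsph1, whose groups lay apart (log2 change -0.39, limma adjusted p = 0.0541). The oviduct gene Ovgp1 read 6.84 to 7.79 over the 6 arrays and changed by -0.0033. The ciliated cell factor Foxj1 read 4.15 to 4.35 on all 6 arrays. Wt1, of urogenital mesoderm, changed by -0.12.

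**Figure D4:**
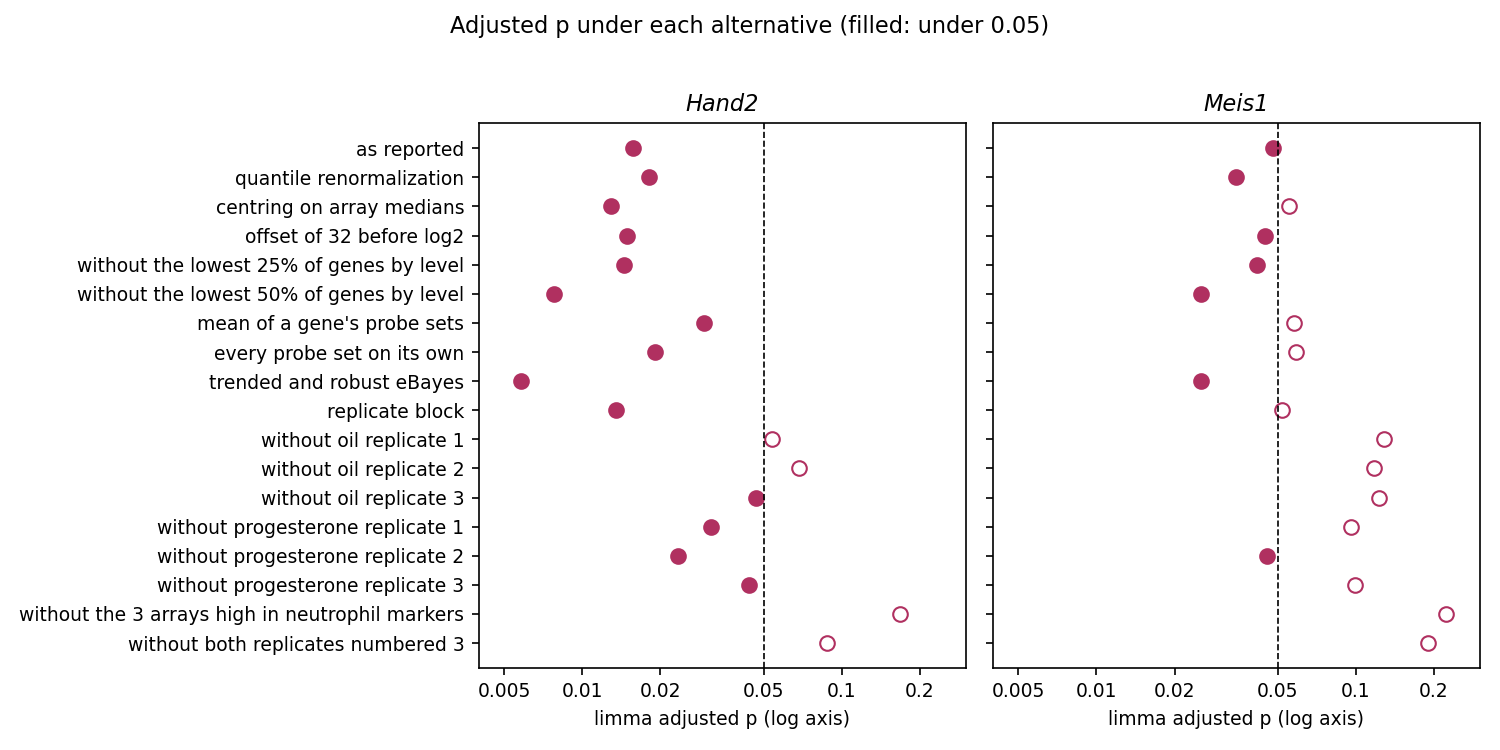
Limma adjusted p (horizontal log axis) of Hand2 and Meis1 as reported and under each of 17 alternatives, filled where under 0.05, with a dashed line at 0.05. Hand2 passes in 13 of the alternatives and Meis1 in 6.

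The genes whose arrays most resembled those of the 2 called factors were found by the same root-mean-square difference. For Hand2 they were E130309D02Rik (0.0362), Bend3 (0.0582) and Rpl7l1 (0.0614), and 888 genes lay within 0.2. For Meis1 they were Sh3d19 (0.0229), Dennd2c (0.0368) and Cd200 (0.0372), and 1615 genes lay within 0.2. These distances are over 6 arrays that share their treatment groups and normalization, and are a description.

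The state of the tissue and its response can be read from a few other genes. Gata2 itself read 10.20 to 10.50 with oil and 10.88 to 11.51 with progesterone, and was present in both groups, as the labels give no deletion. The receptor Pgr, which mediates the hormone's action, had a log2 change of -1.06. Defining markers of epithelium, stroma and smooth muscle were all measured above background. Of 71 marker genes in 12 lists 3 passed, against 11.7% of all genes: Cldn3 and Ttr were higher and Lum was lower. Alb, a liver transcript, read 8.71 on oil replicate 3 and 3.96 to 4.29 on the other 5 arrays.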

How the data were processed

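Uterine RNA from 6 mouse samples, 3 oil and 3 progesterone by their titles, was measured on Affymetrix arrays from biotinylated cRNA. For 45101 probe sets the authors deposited log2 values, made with RMA and Partek 6.6 according to the submitters' processing notes. RMA corrects background and normalizes between arrays, which compresses changes of dim probe sets. Detection calls were not used here. The array medians were 5.50 to 5.53. No arrays were identical, and their number limits the precision.

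Of the probe sets 34945 had 1 gene symbol in the platform annotation, 932 had several, 9160 had none and 64 were controls. Moderated linear models (limma 3.58.1, R 4.3.3; two-sided, no filter on dim genes) were fitted to 18193 genes, and p was adjusted by Benjamini-Hochberg over all of them. Probe sets named beside the main one were adjusted over all 45037 probe sets. The fit was tested on simulated data. Differences between a pair of genes used an exact permutation of arrays.

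All 9 factors, their probe sets, the called members of 7 lists of related genes (up to 4 by size, or the largest change where none passed) and the 3 genes nearest to each called factor were named. Other genes were named after their values were seen. The members and lists were chosen with earlier results of these data known. Same-numbered arrays correlated at 0.523, 0.141 and 0.636 in their deviations from the group means, which was read as a possible pairing by number. Oil replicate 2, however, correlated more with progesterone replicate 1 (0.322) than with progesterone replicate 2 (0.141). The pairing is a hint from the data, since the labels do not say what a number shares. The main fit uses no block. Blocked values stand beside results they change.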

Additional observations from a re-analysis of the deposited data

How the results depend on the processing

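The count of factors that rose was 1 and stayed at 1 under quantile renormalization, median centring, an offset of 32, either filter on dim genes, averaged probe sets, probe sets tested singly, eBayes with trend and robust settings, and the replicate block. It was 0 at an adjusted p of 0.01, and 0 to 1 when 1 array was left out. The count that fell was 1, and it was 0 with centring on array medians, with averaged probe sets, with the replicate block and at an adjusted p of 0.01, and 0 to 1 when 1 array was left out. The adjusted p of Meis1 was 0.0554 with centring, 0.0577 with averaged probe sets and 0.0518 with the block, and ranged from 0.0253 to 0.223 over 17 alternatives; that of Hand2 ranged from 0.0058 to 0.168. With 1 array left out the log2 change of Msx1 ranged from -0.0217 to 0.38 and that of Emx2 from -0.0617 to 0.17, both negative only without progesterone replicate 1, and no other factor and no related gene named by the rule changed sign in any alternative run. The block changed no call of another factor.

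Over all genes 1077 were higher and 1060 lower. These were 1808 and 1692 probe sets when probe sets were tested singly, 328 and 243 at an adjusted p of 0.01, and 379 to 848 and 278 to 907 when 1 array was left out. The replicate block gave 1382 and 1545. Further fits, added once the data had been seen, left out arrays together: without both replicates numbered 3 (586 higher and 441 lower, with 0 factors higher and 0 lower) and, in turn, without the 3 arrays high in S100a8 and S100a9. The latter gave 0 higher and 0 lower in limma, for all genes and for the factors, with 3379 genes and 4 factors at an unadjusted p under 0.05. Fewer arrays alone lower the number of calls.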
